A study of Mus musculus with 6 samples.

Results

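The genes described here are 10 genes of MHC class I antigen presentation in the dorsal root ganglion (DRG) of mice that received a viral vector for the long noncoding RNA *NIS-lncRNA*. They were taken by symbol from a table of 48440 genes and comprise the class I chains *H2-K1*, *H2-D1*, and *B2m*, the peptide transport and loading genes *Tap1*, *Tap2*, and *Tapbp*, the immunoproteasome genes *Psmb8*, *Psmb9*, and *Psmb10*, and the transactivator *Nlrc5*. All 10 passed the filter on low counts. RNA sequencing was done on DRGs of WT male mice, 3 libraries from DRGs given AAV5-*Gfp*, a vector for green fluorescent protein, and 3 from DRGs given AAV5-*V1* mixed with AAV5-*V2*, which carry the transcript variants of *NIS-lncRNA* (AAV5-*V1+V2*). The vectors were microinjected into the L3/4 DRGs of one side. The deposited text places tissue collection at 5 weeks and the comparison at 4 weeks after microinjection, and this difference could not be resolved. No group without a vector was among the libraries, so insert and virus preparation cannot be told apart in any difference given here. The study describes the mice given these vectors as CD1, an outbred stock. Neither the promoter of the vectors nor the number of mice behind a library is given in the sources used here. The counts of the transduced transcript were not analysed here. Total counts per library were between 32025612 and 34764282.

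MHC class I molecules carry short peptides from inside the cell to its surface, where CD8+ T cells and natural killer cells read them. The peptides are cut by the proteasome, pumped into the endoplasmic reticulum by the TAP transporter, and fitted into a heavy chain bound to beta-2-microglobulin. Under interferon, cells replace the catalytic subunits of the standard proteasome with those of the immunoproteasome, and NLRC5 drives transcription of many genes of this pathway. Neurons usually carry little MHC class I at rest, whereas leukocytes and endothelium carry much.

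The promoters of the class I chains are shown because they place sequences known from this pathway side by side. RefSeq promoters on GRCm38.p6 (300 bases each, 250 before the transcription start and 50 after it) were at hand for 8 of the 10 genes, with no entry for *Tap2* and *Nlrc5*. On the strand of the gene, the promoters of *H2-K1*, *H2-D1*, and *B2m* each held the letters TGACG, the core of the X2 box, and, after a gap of 20 bases, the letters of the Y box, which is the CCAAT box read on the other strand. Both boxes are parts of the enhanceosome site on which NLRC5 acts. The nonclassical class I gene *H2-M3* held the same pair. The pair was noticed after these sequences were read, and its letters are in capitals below.
H2-K1, chr17:34000359-34000388, minus strand: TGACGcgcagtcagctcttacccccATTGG
H2-D1, chr17:35262993-35263022, plus strand: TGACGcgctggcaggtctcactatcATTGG
B2m, chr2:122147609-122147638, plus strand: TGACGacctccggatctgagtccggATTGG
H2-M3, chr17:37270188-37270217, plus strand: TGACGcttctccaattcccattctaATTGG

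The pair began 41, 101, 78, and 46 bases before the start of *H2-K1*, *H2-D1*, *B2m*, and *H2-M3*. In the GENCODE M21 annotation, the *H2-D1* pair lies inside the first exon of a longer transcript. *H2-K1* and *H2-D1* shared 23 of the 30 bases and *H2-K1* and *B2m* 13 of 30, the 10 bases that define the pair included. Of 32851 promoters, 19 held the pair (0.0578%), and they belonged to 16 of 27025 genes. Of these 16 genes, 14 were tested. The 4 class I genes, in whose sequences the pair was noticed, were higher in AAV5-*V1+V2*, where 10.1% of all genes tested were higher. Their calls are therefore no test of the pair. *Slc8a3* was lower (log2 fold change -0.48, adjusted p = 0.0177 from the quasi-likelihood F-test of edgeR, adjusted by Benjamini-Hochberg), and the other 9 did not pass.

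Further upstream, the *H2-K1* promoter held GGGNNTTCC, an NF-kappaB-like spelling, and TTTCNNTTC, a spelling of the interferon-stimulated response element. The *B2m* promoter held TTCNNTTTC, the other spelling of that element, on the opposite strand. The stretches from these matches to the pair are given whole, with the matches in capitals.
H2-K1, chr17:34000359-34000458, minus strand: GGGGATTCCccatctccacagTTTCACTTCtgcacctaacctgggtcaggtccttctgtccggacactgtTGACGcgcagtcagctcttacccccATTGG
B2m, chr2:122147548-122147638, plus strand: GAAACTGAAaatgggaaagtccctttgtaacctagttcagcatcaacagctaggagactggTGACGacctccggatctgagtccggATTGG

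Each motif was searched on both strands, with overlaps between motifs allowed. TTCNNTTTC was found in 8.56% of all promoters and, among the 8 genes, in *B2m*. TTTCNNTTC was found in 7.52% of promoters and in *H2-K1* and *H2-D1*, and GGGNNTTCC in 5.82% and in the same pair of genes. The gamma-activated site TTCNNNGAA was found in 8.30% of promoters and, of the 8, in *Psmb8*. CCAAT was found in 37.4% of promoters and in 6 of the 8, and TGACG in 20.8% and in 5 of the 8. *Psmb10* held none of these letters in its window. A match describes the sequence and not a bound factor.

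**Figure D1:**
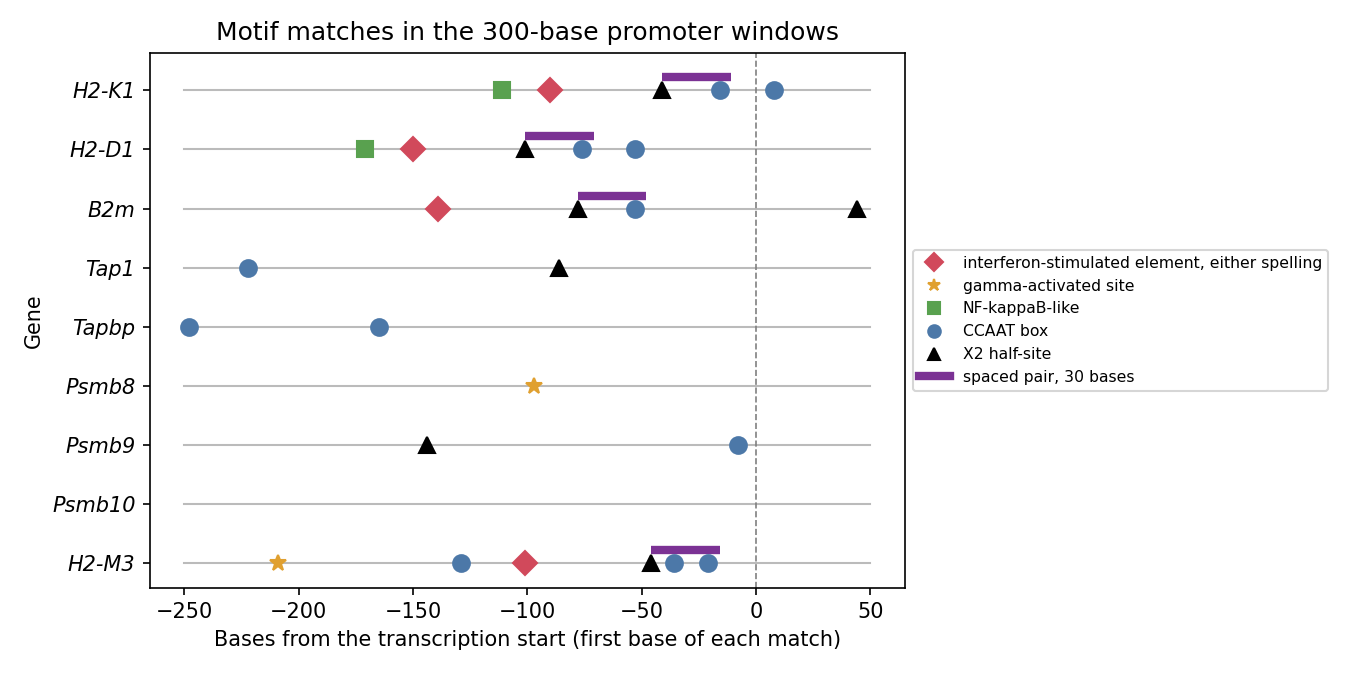
Motif matches in the promoter windows of the 8 genes with an entry and of *H2-M3*. The x axis gives bases from the transcription start (dashed line), each symbol marks the first base of a match, and purple bars mark the spaced pair of 30 bases. The pair is drawn for *H2-K1*, *H2-D1*, *B2m*, and *H2-M3*, and the line of *Psmb10* is empty.

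In AAV5-*V1+V2* DRGs, all 10 genes were higher than in AAV5-*Gfp* DRGs, with a median log2 fold change of 2.18. The fold changes were between 1.82 for *Psmb10* and 5.79 for *H2-K1*, and 8 of the 10 genes had at least 2-fold higher counts. Adjusted p-values were between 0.0139 and 0.0308 (quasi-likelihood F-test of edgeR, Benjamini-Hochberg adjusted over 18593 genes). By this test 10.1% of all genes were higher and 5.27% lower, and 5.66% were at least 2-fold higher. None of the 10 genes was lower. The median log2 fold change of all genes tested was 0.00. For all 10 genes every AAV5-*V1+V2* library lay above every AAV5-*Gfp* library, which held for 23.4% of genes tested.

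The calls changed when single libraries were left out. Without AAV5-*Gfp* replicate 2, 0 of the 10 genes passed (adjusted p between 0.0815 and 0.107), where edgeR's quasi-likelihood test called 0.0634% of all genes higher. Without AAV5-*Gfp* replicate 3, 0 of 10 passed (0.0875 to 0.121), where 0.0792% of all genes were higher. Without AAV5-*Gfp* replicate 1, 7 passed against 1.35% of all genes, and *Nlrc5*, *Psmb10*, and *Tapbp* did not. Without AAV5-*V1+V2* replicate 2, 8 passed against 5.40%, and *Psmb10* and *Tapbp* did not. All 10 passed without AAV5-*V1+V2* replicate 1 (background 9.85%) and without replicate 3 (13.1%). In each of these 6 fits the 10 genes were all higher in AAV5-*V1+V2*, each with an unadjusted p below 0.05. Over all genes, 2916 to 3883 were higher at that level in a fit, of 18897 to 18975 tested.

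**Figure D2:**
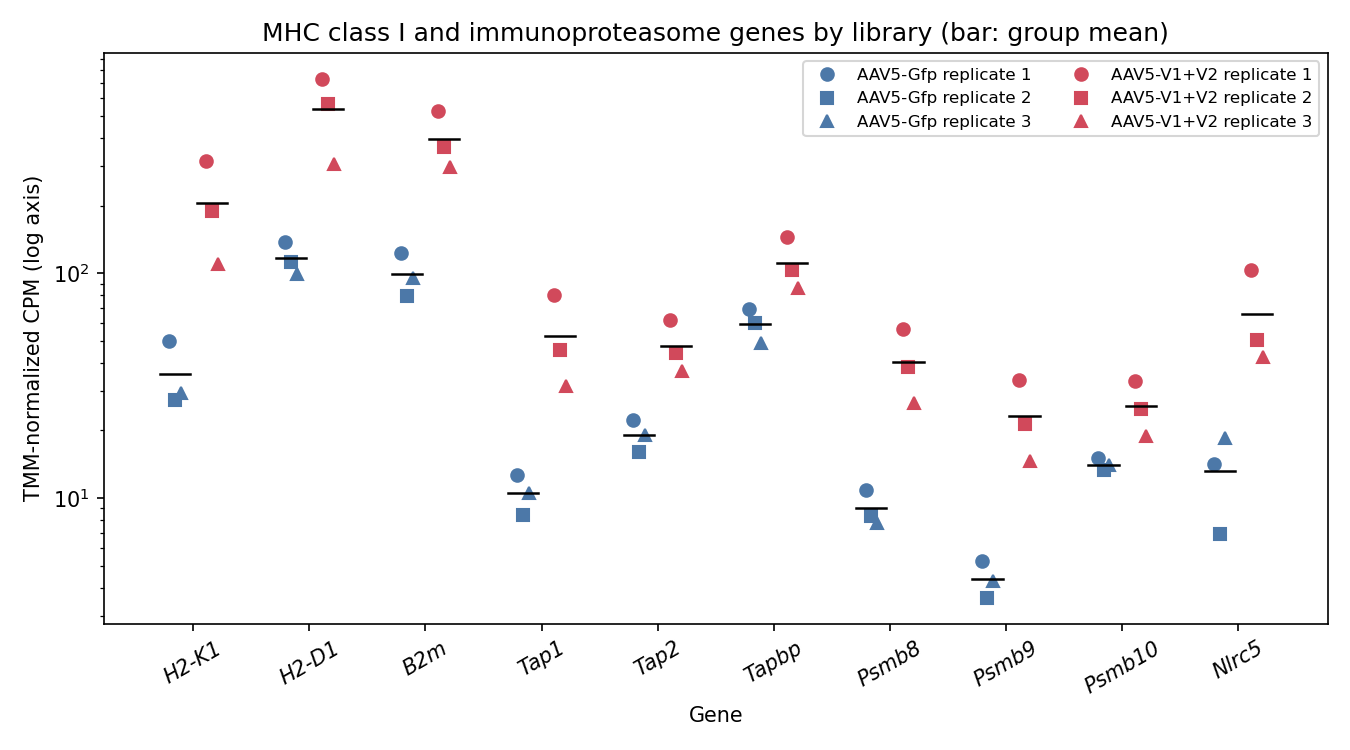
TMM-normalized CPM (log axis) of the 10 genes in each library, with a black bar at each group mean. AAV5-*V1+V2* libraries (red) lie above all AAV5-*Gfp* libraries (blue) for every gene, by the least for *Tapbp* and *Psmb10*.

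*H2-K1*, a classical class I heavy chain on chromosome 17 of GRCm38 (33996017 to 34000347, minus strand), was counted 1609, 948, and 913 times in the AAV5-*Gfp* libraries, given here and below in the order of replicates 1, 2, and 3. The AAV5-*V1+V2* libraries held 10429, 6289, and 3777 counts. In counts per library size after TMM scaling (normalized CPM), replicate 1 of AAV5-*V1+V2* was 2.88 times replicate 3, yet the lowest AAV5-*V1+V2* library was still 2.21 times the highest AAV5-*Gfp* library. The log2 fold change was 2.53 ± 0.41 (SE; adjusted p = 0.0157, edgeR), the largest of the 10 genes.

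*H2-D1*, the other classical heavy chain, lies on the same chromosome from 35262730 to 35267499. Its counts were 4460, 3875, and 3111 in AAV5-*Gfp* and 24077, 18942, and 10457 in AAV5-*V1+V2*. The groups were again separated by 2.21 times at their nearest libraries in normalized CPM. The log2 fold change was 2.20 ± 0.31 (SE; adjusted p = 0.0144, same test). Heavy chains have many near-identical copies and differ between mice, and the handling of reads that match several genes is not stated, so the division of counts between *H2-K1*, *H2-D1*, and the nonclassical genes is uncertain.

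*B2m* encodes beta-2-microglobulin, the light chain shared by class I molecules, and lies on chromosome 2 from 122147686 to 122153083. In normalized CPM it had 123, 79.2, and 95.5 in AAV5-*Gfp* and 528, 365, and 296 CPM in AAV5-*V1+V2*. The AAV5-*V1+V2* libraries were thus closer to each other than for the heavy chains (highest over lowest 1.79). The mean rise was 3.99-fold (SE 0.24 on the log2 scale; adjusted p = 0.0139, edgeR). *Patl2* lies across the whole of *B2m* on the opposite strand and was higher too (adjusted p = 0.0144, edgeR), from between 138 and 197 counts in AAV5-*Gfp* to between 416 and 596. The libraries were stranded, but whether the counting used strand is not stated, so reads of these genes might have been exchanged. *Patl2* counts were at most 596, against at least 10146 for *B2m* in the same group.

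*Tap1* and *Tap2* encode the partner chains of the peptide transporter. *Tap1* (chromosome 17, 34187553 to 34197225) had 12.7, 8.43, and 10.5 CPM in AAV5-*Gfp* and 80.1, 45.7, and 31.5 CPM in AAV5-*V1+V2*. Its log2 fold change was 2.31 ± 0.34 (SE; adjusted p = 0.0144, edgeR). *Tap2* (34203527 to 34216321) had 22.2, 16.0, and 19.2 CPM in AAV5-*Gfp* and 62.0, 44.3, and 36.6 CPM in AAV5-*V1+V2*. The groups did not overlap, and the rise of *Tap2*, a log2 fold change of 1.32 ± 0.21 (SE; adjusted p = 0.0149, edgeR), was numerically smaller than that of *Tap1*, a difference that was not tested. *Tapbp*, which encodes tapasin, the chaperone that holds the heavy chain to the transporter, lies on chromosome 17 from 33915899 to 33929292. It had 69.0, 60.0, and 48.8 CPM in AAV5-*Gfp* and 145, 103, and 85.7 CPM in AAV5-*V1+V2*. Here the groups were nearest, with the lowest AAV5-*V1+V2* library 1.24 times the highest AAV5-*Gfp* library. *Tapbp* had a log2 fold change of 0.91 ± 0.21 (SE; adjusted p = 0.0308, edgeR). *Zbtb22* overlaps 3422 bases of *Tapbp* on the same strand, where strand could not divide reads. *Zbtb22* had 10, 11, and 4 counts in AAV5-*Gfp* and 6, 7, and 4 in AAV5-*V1+V2*.

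The immunoproteasome subunits are paired with standard ones, *Psmb8* with *Psmb5*, *Psmb9* with *Psmb6*, and *Psmb10* with *Psmb7*, and take their places in the 20S core. *Psmb8* (chromosome 17, 34197721 to 34201454) had 10.9, 8.31, and 7.79 CPM in AAV5-*Gfp* and 56.4, 38.4, and 26.6 CPM in AAV5-*V1+V2*. Its log2 fold change was 2.17 ± 0.28 (SE; adjusted p = 0.0140, edgeR). *Psmb9* (34181987 to 34187764) had 5.24, 3.61, and 4.26 CPM in AAV5-*Gfp* and 33.4, 21.3, and 14.6 CPM in AAV5-*V1+V2*. *Gm20496*, antisense to parts of *Psmb8* and *Tap2*, had 7 to 19 counts in AAV5-*Gfp* and 30 to 47 in AAV5-*V1+V2*. *Psmb9* held the widest gap between groups, with the lowest AAV5-*V1+V2* library 2.79 times the highest AAV5-*Gfp* one, and a log2 fold change of 2.40 ± 0.31 (SE; adjusted p = 0.0140, edgeR). *Psmb9* and *Tap1* lie head to head on opposite strands and overlap by 212 bases, where unstranded counting could not divide reads. *Psmb10*, on chromosome 8 from 105935735 to 105938444, rose least. It had 484, 461, and 437 counts in AAV5-*Gfp* and 1090, 828, and 648 counts in AAV5-*V1+V2*, a log2 fold change of 0.86 ± 0.19 (SE; adjusted p = 0.0292, edgeR). *Gm16156*, an antisense gene across the whole of *Psmb10*, had between 115 and 169 counts in all libraries (log2 fold change 0.07).

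*Nlrc5*, the class I transactivator, lies on chromosome 8 from 94434356 to 94527272. It had 459, 240, and 577 counts in AAV5-*Gfp* and 3420, 1687, and 1453 in AAV5-*V1+V2*. *Nlrc5* was the most variable of the 10 genes within AAV5-*Gfp* (highest over lowest 2.67), with replicate 2 lowest, and the groups still did not overlap. Its log2 fold change was 2.32 ± 0.44 (SE; adjusted p = 0.0213, edgeR). The noncoding gene *9330175E14Rik* overlaps 748 bases of the start of *Nlrc5* on the opposite strand and rose beside it (log2 fold change 2.60, adjusted p = 0.0193, edgeR), from 14 to 22 counts to between 67 and 200. Without AAV5-*V1+V2* replicate 1 the log2 fold change of *9330175E14Rik* was 1.98.

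**Figure D3:**
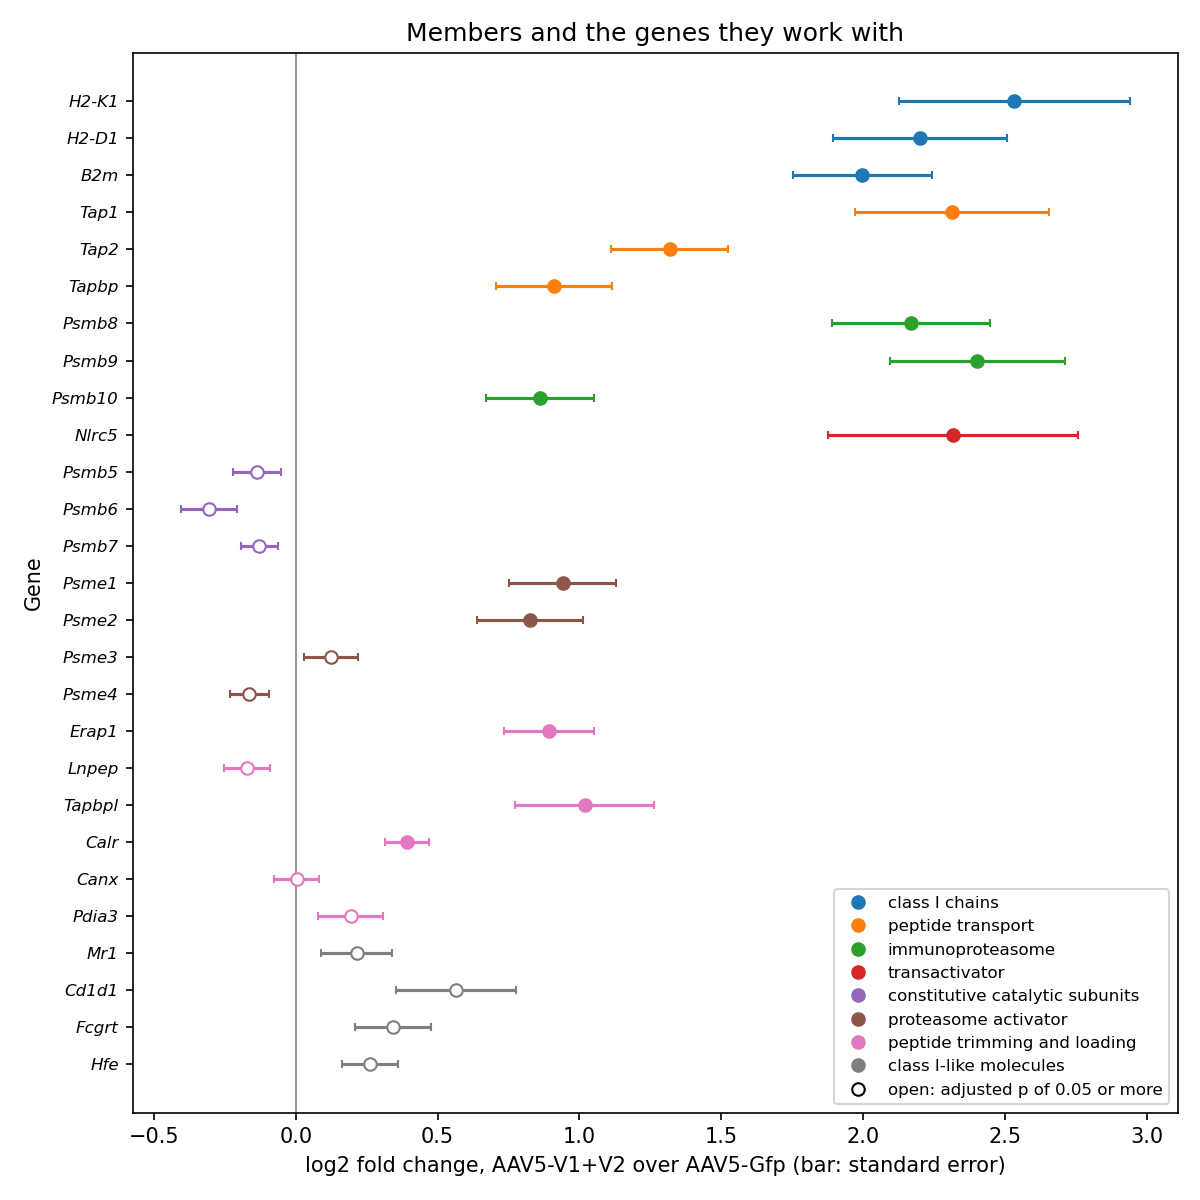
Log2 fold changes of the 10 genes and of genes they work with, AAV5-*V1+V2* over AAV5-*Gfp*. Points are estimates, bars standard errors, and open points had an adjusted p of 0.05 or more in edgeR's test. The 10 genes lie between 0.86 and 2.53, and the standard catalytic subunits *Psmb5*, *Psmb6*, and *Psmb7* below 0 with open points.

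Per kilobase of exon, *B2m* had the highest level of the 10 genes in both groups, with 92.0 to 143 CPM per kilobase in AAV5-*Gfp* and 344 to 614 in AAV5-*V1+V2*. *H2-D1* was next, with 38.7 to 53.6 and 118 to 284. In AAV5-*Gfp* the lowest levels were those of *Nlrc5* (0.815 to 2.18), *Psmb9* (0.986 to 1.43), and *Tap1* (1.54 to 2.32), and the range of *Nlrc5* overlapped both of the others. *Psmb10*, with 7.80 to 8.80 CPM per kilobase in AAV5-*Gfp*, lay above *Psmb8* (2.30 to 3.23), but in AAV5-*V1+V2* their ranges overlapped (11.1 to 19.4 and 7.87 to 16.7). Exon length, here and in the shares per length below, was the union of all annotated exons of a gene. It was 3660 bases for *Psmb9* and 899 for *Psmb5*, so comparisons between genes depend on the annotation.

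The immunoproteasome genes rose while their partners did not pass edgeR's test with all libraries. For every 100 reads of *Psmb5*, there were 36.9, 27.4, and 28.5 reads of *Psmb8* in AAV5-*Gfp* libraries and 234, 138, and 96.9 in AAV5-*V1+V2*. For *Psmb9* per 100 reads of *Psmb6* the values were 5.51, 3.93, and 4.33 against 51.0, 25.8, and 17.6. For *Psmb10* per 100 reads of *Psmb7* they were 13.2, 11.8, and 12.6 against 34.5, 23.3, and 17.8. No pair overlapped between groups, and AAV5-*V1+V2* replicate 1 was highest in all 3. The ratios were 4.78, 6.28, and 1.94 times as high in AAV5-*V1+V2*, or 2.26, 2.65, and 0.96 on the log2 scale (standard errors 0.39, 0.47, and 0.28). The exact two-sided permutation test gave p = 0.1 for each pair, the smallest it can give with 3 against 3, and 0.1 after Benjamini-Hochberg adjustment over the 3 pairs. Per length, the 3 immunoproteasome genes held 10.3%, 8.86%, and 9.18% of the reads of the 6 catalytic genes in AAV5-*Gfp* and 33.5%, 23%, and 17.8% in AAV5-*V1+V2*. A ratio within a library shows unequal change and not which partner changed.

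**Figure D4:**
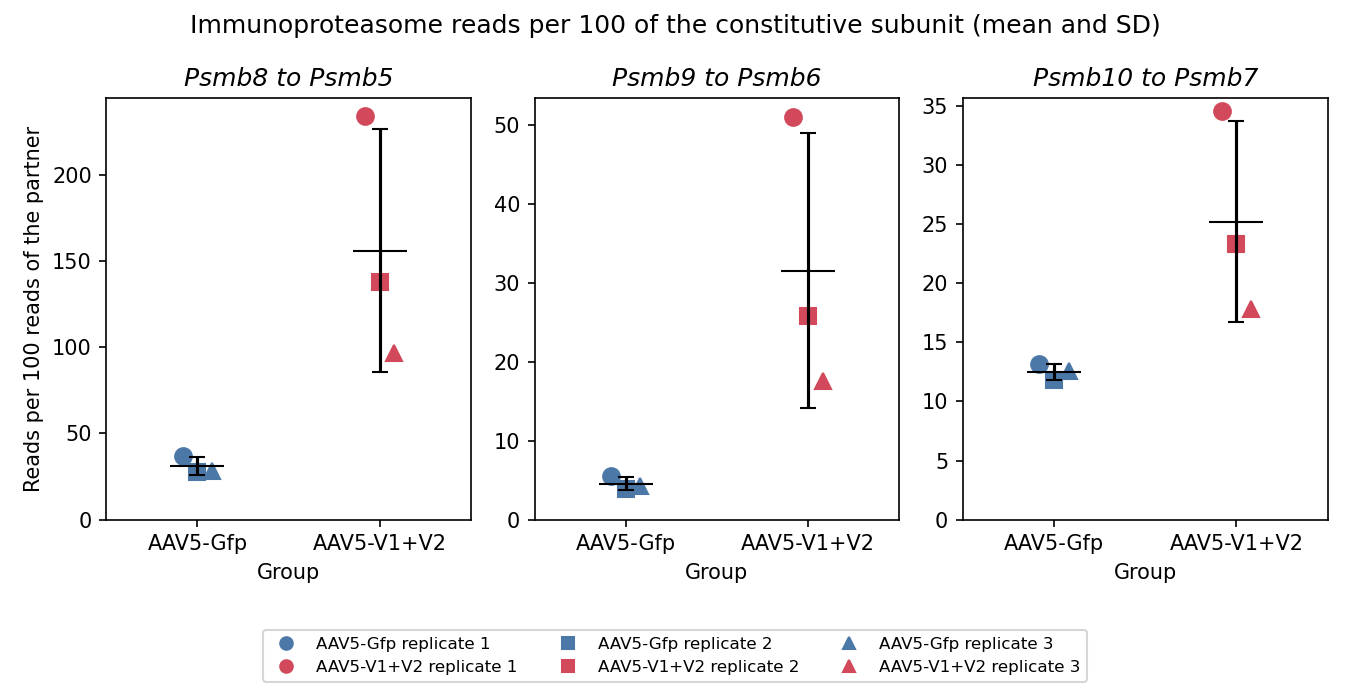
Reads of each immunoproteasome gene per 100 reads of its standard partner, on linear axes from 0, by library, with the mean and SD (n = 3 per group). AAV5-*V1+V2* libraries lie above AAV5-*Gfp* libraries in all 3 panels, with replicate 1 highest.

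Genes of the standard proteasome did not pass the test. Of 32 genes of the standard catalytic subunits, the other 20S subunits, and the 19S particle, 0 were higher and 0 lower by edgeR's quasi-likelihood test, and their median log2 fold change was -0.14. At an unadjusted p under 0.05, 0 were higher and 6 lower. Over all 18593 genes tested, 3577 were higher and 2878 lower at that level, the background for the list counts below. Of the 32 genes, DESeq2 called 2 lower and limma-voom 0. Over all 18593 genes, DESeq2 called 2405 higher and 1606 lower, and limma-voom 1421 higher and 842 lower. By edgeR, *Psmb5* (log2 fold change -0.14), *Psmb6* (-0.30), and *Psmb7* (-0.13) did not pass, nor did *Psmd14*, a deubiquitinase of the 19S particle (-0.20, adjusted p = 0.0693), and *Psmb2* of the 20S core (-0.25, adjusted p = 0.0785). *Psmb6* was 1 of the genes that DESeq2 called lower (adjusted p = 0.0406). Without AAV5-*V1+V2* replicate 1, edgeR called *Psmb6* lower too (adjusted p = 0.0373), and in no other fit without a library. Of 5 chaperones of proteasome assembly, 0 passed and 1 was higher at an unadjusted p under 0.05, and DESeq2 and limma-voom called 0. Among them *Psmg4* had the smallest adjusted p (0.0822, log2 fold change 0.38) and *Pomp* a log2 fold change of -0.02. Of the 4 proteasome activators, *Psme1* and *Psme2*, the subunits of the interferon-inducible PA28 cap, were higher. *Psme1* had 11.6 to 14.6 CPM in AAV5-*Gfp* and 19.4 to 32.3 CPM in AAV5-*V1+V2* (log2 fold change 0.94, adjusted p = 0.0236, edgeR). *Psme2* had a log2 fold change of 0.83 (adjusted p = 0.0310, edgeR). *Psme3* (0.12) and *Psme4* (-0.16), which encode nuclear activators, did not pass.

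Peptide trimming and loading was mixed, with 3 of 6 genes higher (10.1% of all genes tested) and a median log2 fold change of 0.29. *Erap1*, the aminopeptidase that trims peptides in the endoplasmic reticulum, had 23.7, 19.6, and 23.3 CPM in AAV5-*Gfp* and 51.2, 38.6, and 34.0 CPM in AAV5-*V1+V2* (log2 fold change 0.89, adjusted p = 0.0183, edgeR). *Tapbpl*, a relative of tapasin, rose by a log2 fold change of 1.02 (adjusted p = 0.0364), and the chaperone gene *Calr* by 0.39 (adjusted p = 0.0225). *Lnpep* (-0.17, adjusted p = 0.182) did not pass, and neither did the other two, *Canx* (0.00) and *Pdia3* (0.19), which were named after their values were seen.

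Of 18 nonclassical class I chains, 12 were higher and 0 lower, with a median log2 fold change of 1.46. At an unadjusted p under 0.05, 13 were higher and 0 lower. *H2-Q6* had 6.17, 3.38, and 3.24 CPM in AAV5-*Gfp* and 45.4, 25.5, and 24.8 CPM in AAV5-*V1+V2* (log2 fold change 2.91, adjusted p = 0.0139, edgeR). *H2-Q4* and *H2-Q7* had log2 fold changes of 2.40 and 2.67 with the same adjusted p. *H2-M2* had the largest difference, from 0.868, 0.0866, and 0.320 CPM (28, 3, and 10 counts) to 32.7, 20.3, and 8.08 CPM (log2 fold change 5.59 ± 0.74, SE, adjusted p = 0.0144, edgeR). At such low counts in AAV5-*Gfp* its size is uncertain, and it was 6.65 without AAV5-*Gfp* replicate 1. These genes share near-identical sequence, and reads might have been moved among them. The 4 class I-like genes, whose products present lipids or metabolites or bind other ligands, did not pass: *Cd1d1* had a log2 fold change of 0.57, *Fcgrt* 0.34, *Hfe* 0.26, and *Mr1* 0.22, with adjusted p-values between 0.108 and 0.259. At an unadjusted p under 0.05, 3 of them were higher, and DESeq2 and limma-voom called 0.

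Of 13 genes tested for interferon-gamma signalling and MHC regulation, 6 were higher and 0 lower, with a median log2 fold change of 0.73 and, at an unadjusted p under 0.05, 10 higher and 0 lower. *Ciita*, the class II counterpart of *Nlrc5*, had 6.04, 4.16, and 5.64 CPM in AAV5-*Gfp* and 57.9, 24.2, and 22.1 CPM in AAV5-*V1+V2* (log2 fold change 2.72, adjusted p = 0.0144, edgeR). *Irf8*, a transcription factor of myeloid and B cells, rose by a log2 fold change of 2.56 (adjusted p = 0.0146). *Ifngr1*, a chain of the interferon-gamma receptor, rose by 0.84 (adjusted p = 0.0232). The *Ifng* gene itself did not pass the filter on low counts in this fit and has no p-value here. It had 0, 0, and 3 counts in AAV5-*Gfp* and 25, 9, and 15 in AAV5-*V1+V2*. Of 8 genes tested for receptors that read class I molecules, 6 were higher and 0 lower, with a median log2 fold change of 2.38. All 8 were higher at an unadjusted p under 0.05. The background for the adjusted calls of both lists was 10.1% of all genes higher and 5.27% lower. *Klrk1* and *Klrd1*, which encode the natural killer cell receptor chains NKG2D and CD94, had log2 fold changes of 2.70 and 2.44 (adjusted p = 0.0159 and 0.0301, edgeR), *Pirb*, an inhibitory receptor of myeloid and B cells, 2.33 (0.0189), and *Klra2*, of the Ly49 family, 2.27 (0.0312). Without AAV5-*V1+V2* replicate 1 the log2 fold changes of *Klrd1*, *Pirb*, and *Klra2* were 1.73, 1.68, and 1.47.

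Over the 10 lists together, 29 of 90 genes tested were higher and 0 lower, where 40 were higher and 7 lower at an unadjusted p under 0.05. Of all 18593 genes tested, 10.1% were higher and 5.27% lower, and 3577 were higher and 2878 lower at an unadjusted p under 0.05. Of the 90 genes, DESeq2 called 36 higher and 2 lower, where it called 2405 higher and 1606 lower of all 18593. The median log2 fold change of the 90 genes was 0.20. The calls moved with the AAV5-*Gfp* libraries as those of the 10 genes did. Without AAV5-*Gfp* replicate 1, edgeR called 9 of these genes higher, and without replicate 2 or replicate 3 it called 0 in either direction, although the unadjusted p of 36 and 39 higher genes was below 0.05. Over all genes that held for 2916 of 18917 and 2932 of 18947. Without AAV5-*V1+V2* replicate 2, 19 genes of the lists were higher. Over all genes, 1.35% were higher without AAV5-*Gfp* replicate 1 and 5.40% without AAV5-*V1+V2* replicate 2.

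**Figure D5:**
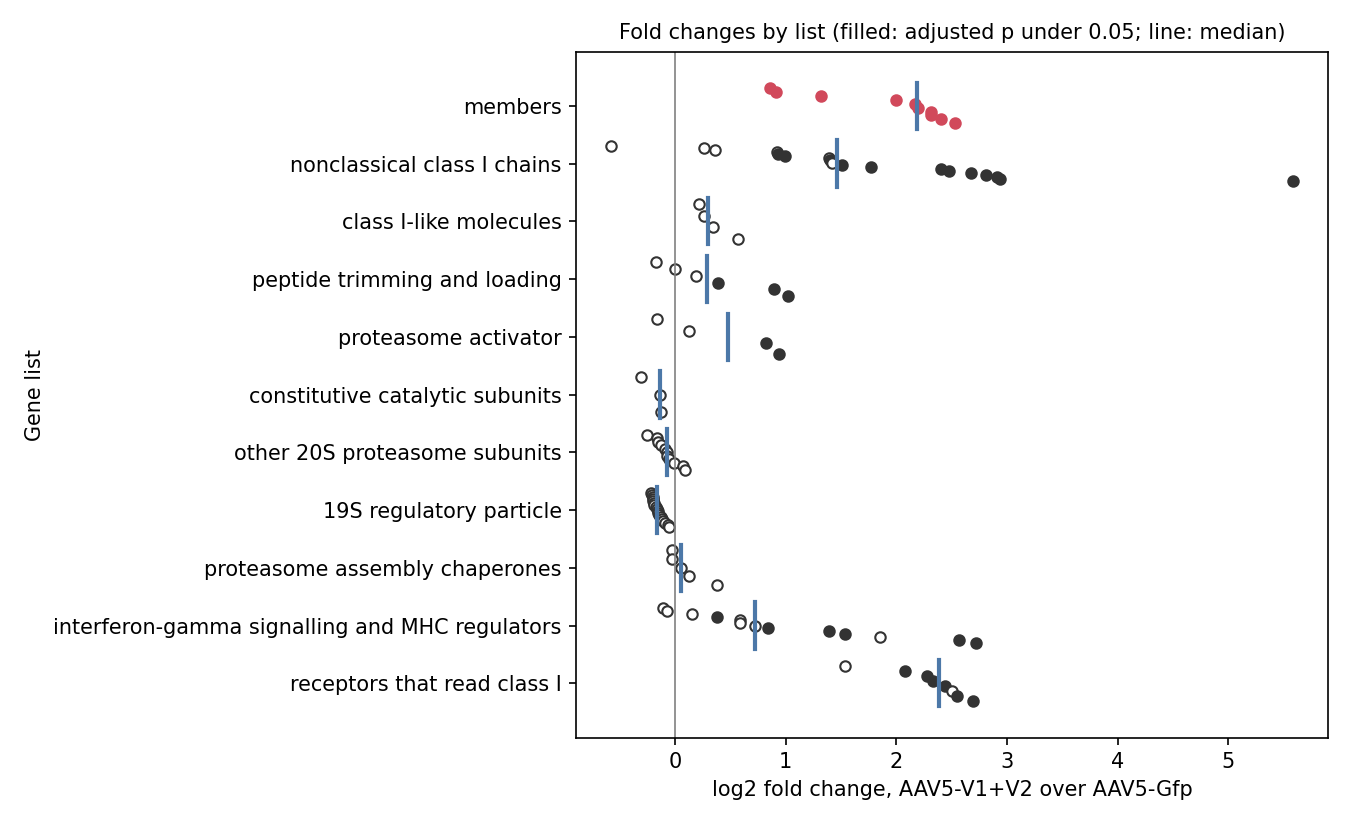
Log2 fold changes of each gene by list, AAV5-*V1+V2* over AAV5-*Gfp*. Filled points had an adjusted p under 0.05 in edgeR's test, open points did not, and the blue line is the median of a list. The 10 genes (red, labelled members) have a median of 2.18, and 30 of the 32 standard proteasome subunits lie below 0, with a median of -0.14 and open points throughout.

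Within AAV5-*V1+V2* the 10 genes followed the same order of libraries. AAV5-*V1+V2* replicate 1 was highest and replicate 3 lowest for 10 of 10, an order found for 70.6% of the 1872 higher genes. Replicate 1 was highest for 92.3% of those. Outside all lists, the genes whose centred log2 CPM over the 6 libraries was most like the mean of the 10 were *Slfn8* (root mean squared difference 0.086), *C1s1* (0.107), *Vcam1* (0.109), *Fyb* (0.111), and *AU020206* (0.114). Of the 10 genes themselves, *B2m* lay nearest to this mean (0.112) and *Psmb10* farthest (0.523).

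Markers of leukocytes moved with these genes. In bulk DRG, more cells of a type and more RNA per cell cannot be told apart. The summed level of 6 leukocyte markers was 245 to 267 CPM in AAV5-*Gfp* and 468 to 876 CPM in AAV5-*V1+V2*, and 5 of the 6 were higher. *Ptprc*, which encodes the leukocyte antigen CD45, rose most of them, by a log2 fold change of 2.83 (adjusted p = 0.0144, edgeR), whereas *Lcp1*, an actin-bundling protein of leukocytes, had a log2 fold change of 0.49 (adjusted p = 0.0504). Macrophage markers summed to 105 to 139 CPM and 223 to 412 CPM, with 7 of 8 higher. T cell markers summed to 2.42 to 7.16 CPM and 28.0 to 63.5 CPM, with 5 of 6 higher, and B cell markers to 3.69 to 6.94 CPM and 39.3 to 89.8 CPM, with 4 of 4 higher. Over all genes tested, 10.1% were higher by the same test. No marker of these lists was at 0 in any library. Without AAV5-*Gfp* replicate 2, and likewise without replicate 3, edgeR called 0 markers of these 4 lists, although 6 leukocyte, 7 macrophage, 6 T cell, and 4 B cell markers were still higher at an unadjusted p below 0.05. Over all genes, 2916 of 18917 and 2932 of 18947 were higher at that level in these fits, and 0.0634% and 0.0792% were called. Without replicate 1 of AAV5-*Gfp*, 3 leukocyte, 3 macrophage, 6 T cell, and 4 B cell markers were called higher, against 1.35% of all genes.

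Divided by the summed leukocyte markers, the 10 genes were higher in AAV5-*V1+V2* by a median log2 difference of 0.90. *H2-K1* (1.24) and *Psmb9* (1.12) had the largest differences, and 2 genes, *Tapbp* (-0.33) and *Psmb10* (-0.39), were below 0. *Lcp1* and *Coro1a*, whose own log2 fold changes were 0.49 and 0.61, held 76.8% to 84.0% of the summed level in AAV5-*Gfp* and 40.5% to 56.5% in AAV5-*V1+V2*. Divided by the other 4 markers of the list, an alternative chosen after the data were seen, all 10 genes were below 0, with a median of -0.48. Divided by *Ptprc* alone, all 10 were below 0, with a median of -0.60. The direction relative to leukocytes thus turned with the markers taken and was above 0 only with *Lcp1* and *Coro1a* in the sum, among these 3 divisors, and the part of leukocytes in the higher levels of these genes was not tested.

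Of the labelled tissue, 9 markers of sensory neurons summed to 8620 to 9390 CPM in AAV5-*Gfp* and 5490 to 8110 CPM in AAV5-*V1+V2*, lowest in replicate 1. Of these 9 genes 1 was lower (*Rbfox3*, log2 fold change -0.93, adjusted p = 0.0256, edgeR; named after its value was seen), and 4 at an unadjusted p under 0.05. Over all genes, edgeR called 5.27% lower. All 9 log2 fold changes were below 0, with a median of -0.39. DESeq2 called 4 of the 9 lower and limma-voom 1, against 1606 and 842 of all 18593 genes. In edgeR's fits without a library, 0 to 4 of the 9 were called lower. The markers of satellite glia (1950 to 2280 CPM and 1980 to 2220 CPM) and Schwann cells (3130 to 3890 CPM and 3350 to 3790 CPM) overlapped between groups, as did those of erythrocytes (866 to 1040 CPM and 808 to 1220 CPM). Endothelial markers summed to 105 to 114 CPM and 119 to 148 CPM, with 1 of 5 higher, against 10.1% of all genes tested. That gene was *Pecam1* (log2 fold change 0.88, adjusted p = 0.0269, edgeR), whereas *Emcn* had -0.35 (adjusted p = 0.0826), both named after their values were seen. Of the 5 log2 fold changes, 3 were above and 2 below 0. Markers of skeletal muscle, which lies beside the DRG, summed to 22.3 to 359 CPM in AAV5-*Gfp*, highest in replicate 2, and to 8.16 to 106 CPM in AAV5-*V1+V2*. The part of these tissues in the differences of the 10 genes was not tested.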

How the data were processed

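Total RNA of microinjected DRGs was made into stranded libraries. For each gene symbol the authors deposited the raw count of reads, 1 column per library, on GRCm38 (mm10 in the labels). The aligner, the annotation, the use of strand, and the handling of reads matching several genes are not given in the sources used here.

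Genes were filtered with filterByExpr, normalized by TMM, and tested without covariates by edgeR's quasi-likelihood test (edgeR 4.0.16, R 4.3.3), with Benjamini-Hochberg adjustment over 18593 genes and a threshold of 0.05. The standard error is the absolute coefficient over the square root of F. Coordinates and exon lengths are from GENCODE M21, and promoters from RefSeq. The calculations were tested on simulated data. DESeq2 1.42.0, limma-voom (limma 3.58.1), other normalizations and filters, a replicate block, and leaving out each library were alternatives.

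The 10 genes and all lists were chosen with earlier results of these data known. The text names the 10 genes, every gene of 3 short lists (catalytic subunits, activators, class I-like molecules), at most 4 genes of each other list, those with the smallest adjusted p (1 of them is not reported here), up to 2 markers a list, and the 5 genes most like the mean profile among those with a mean of at least 5 CPM.

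Chi-square per degree of freedom between libraries of a group was 8.27 to 48.9, so none was a duplicate. Where nothing in the labels says that replicates are separate animals, p-values measure the spread between these libraries.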

Additional observations from a re-analysis of the deposited data

How the results depend on the processing

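The direction and the call of each of the 10 genes were the same in 80 of 80 results under 8 alternatives that kept all libraries (3 other normalizations, 2 other filters, DESeq2, limma-voom, and the replicate block). Over the 6 fits without 1 library the direction stayed in all and the call in 35 of 60. Leaving out a library gave 0 to 10 of the 10 genes called, a median log2 fold change of 1.84 to 2.45, 0 to 34 pathway genes higher, 12 to 2474 genes higher, and 0 to 1446 genes lower over the whole table. At an unadjusted p under 0.05, 2029 and 1815 genes were lower in the 2 fits (without AAV5-*Gfp* replicate 2 or 3) with 0 called. DESeq2 called 1606 genes lower against 980 with edgeR. Relative to *Ptprc* alone, the median of the 10 genes was -0.60, and relative to the leukocyte list without *Lcp1* and *Coro1a* -0.48, against 0.90 relative to the leukocyte sum. Without a library the latter was 0.75 to 1.05. The subunit ratios without a library were 1.92 to 2.55 (*Psmb8* to *Psmb5*), 2.23 to 3.0 (*Psmb9* to *Psmb6*), and 0.70 to 1.18 (*Psmb10* to *Psmb7*) on the log2 scale. The cause of these changes was not tested. Each fit without a library also had fewer samples. Same-numbered libraries of the 2 groups had correlations of deviations of 0.038, 0.065, and 0.139, not all over 0.1, and share only a number. With the replicate block, 10 of 10 genes were called, with 2118 genes higher and 1341 lower over the table. Near-identical class I chains, overlapping genes, and 3 libraries a group limit these values, and genes with few counts in AAV5-*Gfp*, such as *H2-M2*, are limited by depth.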
